A study of Homo sapiens with 12 samples.

Results

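The EGF ligands and receptors described here are the 7 genes HBEGF, AREG, EREG, TGFA, EGFR, ERBB2 and ERBB3, with every array probe annotated to them. The probes number 14, on 6 of the 7 genes, among 47313 probes with values. AREG, the amphiregulin gene, had no probe in the annotation used and is not analysed here. A detection p-value below 0.05 on at least 3 of 12 arrays was required for a test across genes, and 7 of the 14 probes met it, on HBEGF, TGFA, EGFR, ERBB2 and ERBB3. These are 5 of the 12178 genes tested. The genes were named with detection scores and levels on these same 12 arrays already known, so their values are given as a description, with standard errors and no test.

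RNA came from Tet21N, a human neuroblastoma cell line in which doxycycline shuts off an N-Myc transgene. The 4 combinations of siRNA and drug had 3 arrays each. These were MondoA siRNA with doxycycline (siMondoA, Myc off), MondoA siRNA without it (siMondoA, Myc on), control siRNA with doxycycline (siControl, Myc off) and control siRNA without it (siControl, Myc on). MondoA, encoded by MLXIP, is a glucose-responsive transcription factor that shares the partner MLX within the extended Myc network. Doxycycline was given at 1 microgram/ml for 3 days, and the labels differ on whether it preceded transfection. Since doxycycline was what shut Myc off, effects of the drug itself and of the loss of Myc cannot be told apart. The groups are of 1 line, and separate cultures are not stated, so that a p-value here rests on the spread between samples whose differences may be technical only.

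EGF-family ligands are made as membrane proteins, and metalloproteases of the ADAM family cut them free. Many bind EGFR and the neuregulins bind ERBB3 and ERBB4, but a ligand can bind several of these receptors. The receptors pair and phosphorylate each other. ERBB2 binds no known ligand and acts as a partner, and ERBB3 signals through its partners because its own kinase is weak. Signals pass through adaptors such as GRB2 and SHC1 to the ERK and PI3-kinase pathways, and inhibitors and ubiquitin ligases end them. HB-EGF, the product of HBEGF, also binds heparan sulfate and, before shedding, is the receptor for diphtheria toxin.

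Detected probes made up 39.15% to 43.81% of those on an array, at median raw signals of 116.8 to 143.2. Arrays of the same group correlated at 0.9863 to 0.9916 across the 12178 genes tested, against 0.9448 to 0.9731 between groups. MLXIP was found on 1 of 12 arrays and MYCN on 0, too dim to check the labels. "Myc off" is the labels' name and does not describe the endogenous MYC transcript, which was higher in those cells. Its probe, detected on all 12 arrays, averaged 8.93 ± 0.08 and 7.93 ± 0.18 in siMondoA cells (Myc off, then Myc on), against 9.10 ± 0.05 and 6.15 ± 0.23 in siControl cells. TXNIP, a direct MondoA target, averaged 6.67 ± 0.10 and 7.96 ± 0.16 with siMondoA (Myc off, then Myc on), against 11.09 ± 0.14 and 11.31 ± 0.05 with siControl (log2 level, SD, n = 3). Of 7 mesenchymal neuroblastoma markers 6 were detected on all 12 arrays, and SPARC, a matrix protein gene, fell with the siRNA in both Myc states (-2.51 with Myc off, -1.10 with Myc on) and rose with Myc off in siControl cells (1.79), and was thus highest, like HBEGF, in siControl Myc-off cells. SNAI2, a transcription factor gene, rose in all 4 comparisons, by 1.17 and 1.57 with the siRNA (Myc off, Myc on) and by 0.94 and 1.34 with Myc off (siMondoA, siControl). PRRX1 rose with the siRNA in both Myc states (0.47 with Myc off, 0.44 with Myc on), opposite to SPARC. VIM fell with the siRNA when Myc was off (-0.34) and rose when Myc was on (0.43). CD44 rose with the siRNA when Myc was on (0.71), and VIM and CD44 rose with Myc off in siControl cells (0.51 and 0.36). FN1 and YAP1 passed in no comparison. Of the sympathetic markers HAND2 and ISL1 were detected on all 12 arrays, and TH and DBH on 0. With the siRNA when Myc was off, HAND2 rose (0.67) and GATA3 fell (-0.61). Of 15 markers of epithelium, blood and endothelium, 14 had a probe, KRT19 was the 1 found on all 12 arrays, and 7 were found on 0, CDH1, KRT5, PTPRC and VWF among them. Their summed signal lay at 404 to 455 and 388 to 443 in siMondoA cells (Myc off, Myc on), against 395 to 426 and 378 to 422 in siControl cells, in overlapping ranges. Floor signal of undetected probes makes up much of each sum, so the overlap says little about other cell types. Of the 5 tested, CD14 rose with the siRNA (0.62 with Myc off, 0.66 with Myc on). EPCAM was higher with the siRNA when Myc was off (0.48) and with Myc off in siMondoA cells (0.75). PECAM1 was lower with the siRNA when Myc was off (-0.63). EPCAM (group means 4.86 to 5.63) and PECAM1 (4.67 to 5.30) were each detected on only 4 of 12 arrays, near the floor. Their calls may rest on the arrays that let them pass the filter, and nothing is read from them. The part of these markers in the results was not tested.

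The sequences just upstream of HBEGF and TGFA are shown because these 2 ligands differed in opposite directions with the MondoA siRNA when Myc was off. Each runs 5′ to 3′ on the strand of the gene, from RefSeq on GRCh38.p14, and ends at the base before the annotated start. HBEGF lies at chr5:140346604-140346853 and TGFA at chr2:70553827-70554076, both on the minus strand. Capitals mark matches to the GC box GGGCGG on either strand, where a match that overlaps its neighbour runs on from it.
HBEGF: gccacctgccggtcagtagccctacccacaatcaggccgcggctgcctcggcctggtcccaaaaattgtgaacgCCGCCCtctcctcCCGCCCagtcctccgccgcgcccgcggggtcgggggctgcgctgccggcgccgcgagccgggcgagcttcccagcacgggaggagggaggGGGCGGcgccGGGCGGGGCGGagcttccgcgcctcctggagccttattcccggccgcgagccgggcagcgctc
TGFA: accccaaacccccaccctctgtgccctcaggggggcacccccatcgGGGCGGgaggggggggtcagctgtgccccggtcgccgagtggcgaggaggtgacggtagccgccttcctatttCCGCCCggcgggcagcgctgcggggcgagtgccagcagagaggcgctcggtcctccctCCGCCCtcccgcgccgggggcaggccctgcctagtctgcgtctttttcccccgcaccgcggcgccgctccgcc
HBEGF had 5 such matches, beginning 176, 163, 73, 63 and 58 bases before the start, of which the 63 and 58 ones overlap. TGFA had 3, at 204, 131 and 73 bases. The GC box stood in 42.6% of the 35116 promoter windows of the same length. Neither window held the E-box CACGTG, the core site of Myc and MondoA complexes (in 6.34% of windows), the AP-1 site TGACTCA (4.2%) or the TEAD site CATTCC (11.9%), on either strand. A second TGFA start in the RefSeq table had 0 matches to any of the 4 motifs. For EGFR, the first annotated start had 2 GC boxes and no AP-1 or TEAD match, and a second start at chr7:55109589-55109838 (plus strand) had 2 AP-1 matches, 232 and 136 bases before it, and 1 TEAD match at 114 bases, with no GC box. A match is a description of letters and not evidence of binding.

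HBEGF was high in 1 of the 4 groups, siControl cells with Myc off, and lower and similar in the other 3. Its single probe (ILMN_2121408) was detected on all 12 arrays. The normalized log2 levels were 6.19, 6.39 and 6.38 in siMondoA cells with Myc off and 6.42, 6.73 and 6.85 in siMondoA cells with Myc on. They were 8.57, 8.64 and 8.73 in siControl cells with Myc off and 6.70, 6.93 and 6.68 in siControl cells with Myc on. The siControl Myc-off arrays stood above all 9 others, and no array of another group came near them. Before background correction the raw signals ran from 508.2 to 541.6 on those arrays. They ran from 160.5 to 186.4 (siMondoA, Myc off), 185.9 to 260.2 (siMondoA, Myc on) and 182.4 to 229.4 (siControl, Myc on) on the others.

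With Myc off, HBEGF averaged 6.32 ± 0.12 in siMondoA cells and 8.65 ± 0.08 in siControl cells (SD, n = 3 each), 5.03-fold lower with the siRNA (log2 difference -2.33 ± 0.13, SE). With Myc on, the means were 6.67 ± 0.22 in siMondoA cells and 6.77 ± 0.14 in siControl cells, and the arrays overlapped (-0.10 ± 0.13, 95% interval -0.39 to 0.18). In siControl cells, Myc off stood 3.67-fold above Myc on (1.88 ± 0.13). In siMondoA cells, the Myc-off arrays stood slightly below the Myc-on arrays (-0.35 ± 0.13), with 6.39 and 6.42 as the nearest values. The knockdown difference with Myc off minus that with Myc on was -2.23 ± 0.18 (95% interval -2.62 to -1.83). In order of level, siControl Myc on and siMondoA Myc on are neighbours whose ranges overlap. In bulk RNA, fewer cells with a transcript and less of it per cell cannot be told apart. Without background correction the Myc-off knockdown difference was -1.45, over 1.5 times smaller.

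**Figure D1:**
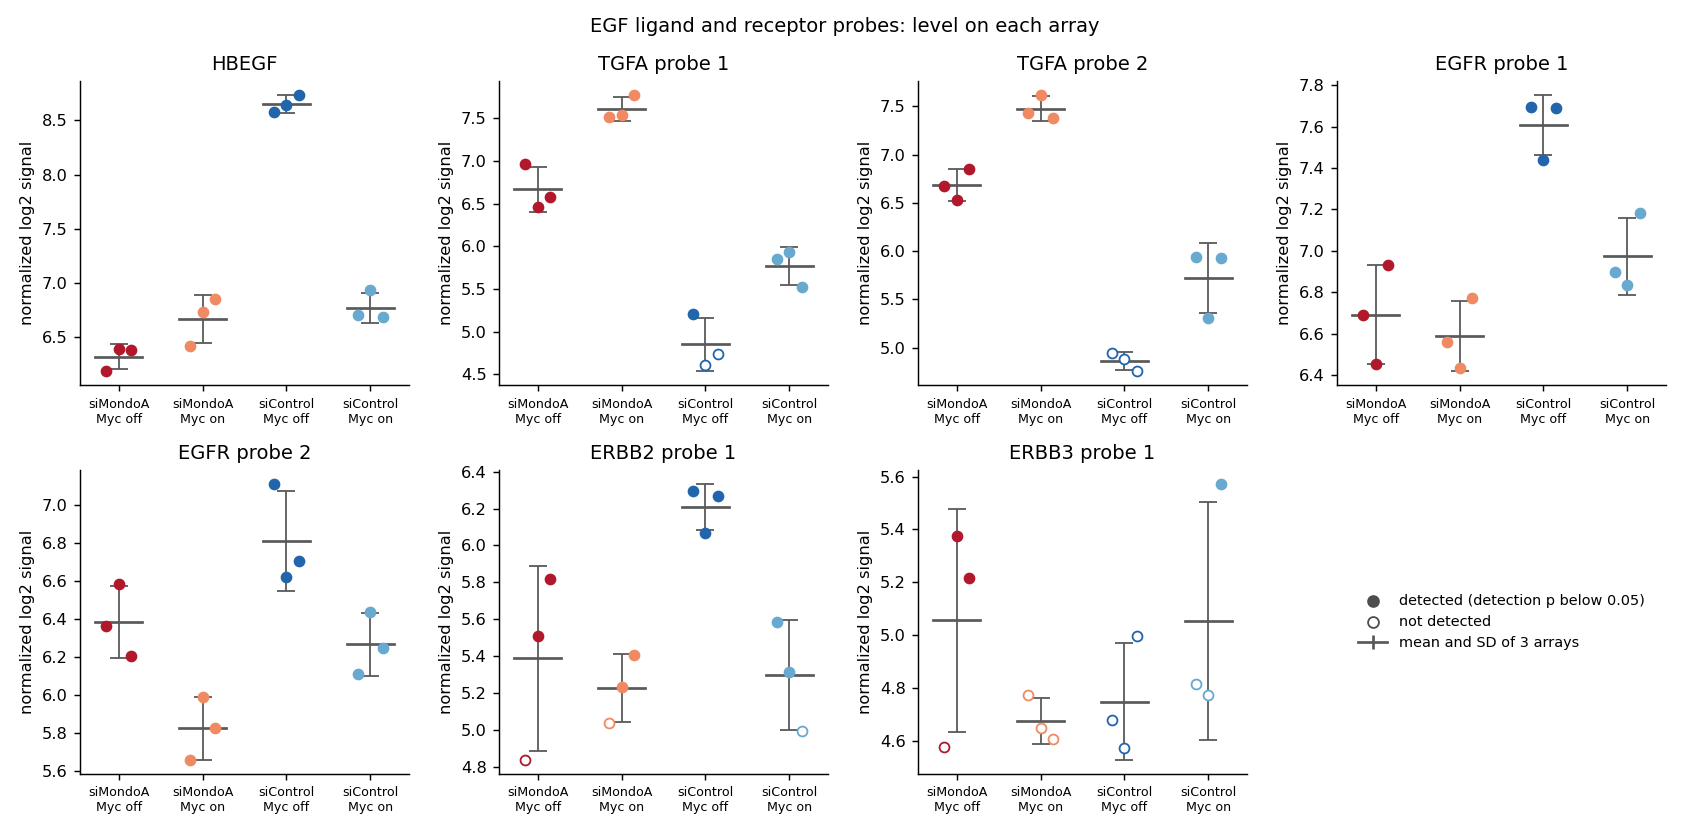
Normalized log2 level (vertical axis) of the 7 member probes that met the detection filter, 1 point per array, in the 4 groups of 3 arrays (siMondoA left of siControl, Myc off left of Myc on), with the mean and SD, where open points were not detected. HBEGF is high in siControl Myc-off cells alone (8.57 to 8.73), whereas both TGFA probes are higher in both siMondoA groups.

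TGFA, which encodes the EGFR ligand transforming growth factor alpha, was higher with the MondoA siRNA in both Myc states and lower with Myc off under both siRNAs. Its brighter probe (ILMN_2083946) was detected on 10 of 12 arrays, the 2 exceptions being siControl Myc-off arrays. Levels were 6.96, 6.46 and 6.58 in siMondoA Myc-off cells and 7.52, 7.54 and 7.77 in siMondoA Myc-on cells. In siControl cells they were 5.20, 4.61 and 4.73 with Myc off and 5.85, 5.93 and 5.52 with Myc on. The 4 groups did not overlap, in the order siMondoA Myc on, siMondoA Myc off, siControl Myc on, siControl Myc off.

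By this probe siControl Myc off was detected on 1 of 3 arrays, so the differences that use that group rest on values near the floor. The siRNA difference in TGFA was 1.82 ± 0.18 with Myc off (3.53-fold) and 1.84 ± 0.18 with Myc on (3.59-fold). Those 2 differed by -0.02 ± 0.25, with a 95% interval of -0.58 to 0.53, and the value was -0.31 under median scaling and 0.28 without siControl Myc-on replicate 2. Myc off against Myc on was -0.94 ± 0.18 in siMondoA cells (1.92-fold lower) and -0.92 ± 0.18 in siControl cells (1.89-fold lower). The other TGFA probe (ILMN_1805175), detected on 9 arrays, was not above background in siControl Myc-off cells. By it, TGFA was at least 3.01-fold higher in siMondoA than in siControl cells with Myc off, and 1.75 ± 0.17 higher on the log2 scale with Myc on. In siControl cells that probe was at least 1.55-fold lower with Myc off than with Myc on. An at-least fold sets the brighter group's mean against a floor on each dim array, which is that array's weakest detected signal or, if higher, the probe's own value. Without background correction the brighter probe's siRNA differences were 0.68 with Myc off and 0.91 with Myc on, and with a neqc offset of 50 they were 1.11 and 1.37.

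EREG, the epiregulin gene, was near background. Its probe was detected on 1 array, a siMondoA Myc-off one, and its levels spanned 4.48 to 5.40 over the 12 arrays, with detection scores (1 minus the detection p-value) of 0.261 to 0.977. It was not tested, and no fold is given.

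**Figure D2:**
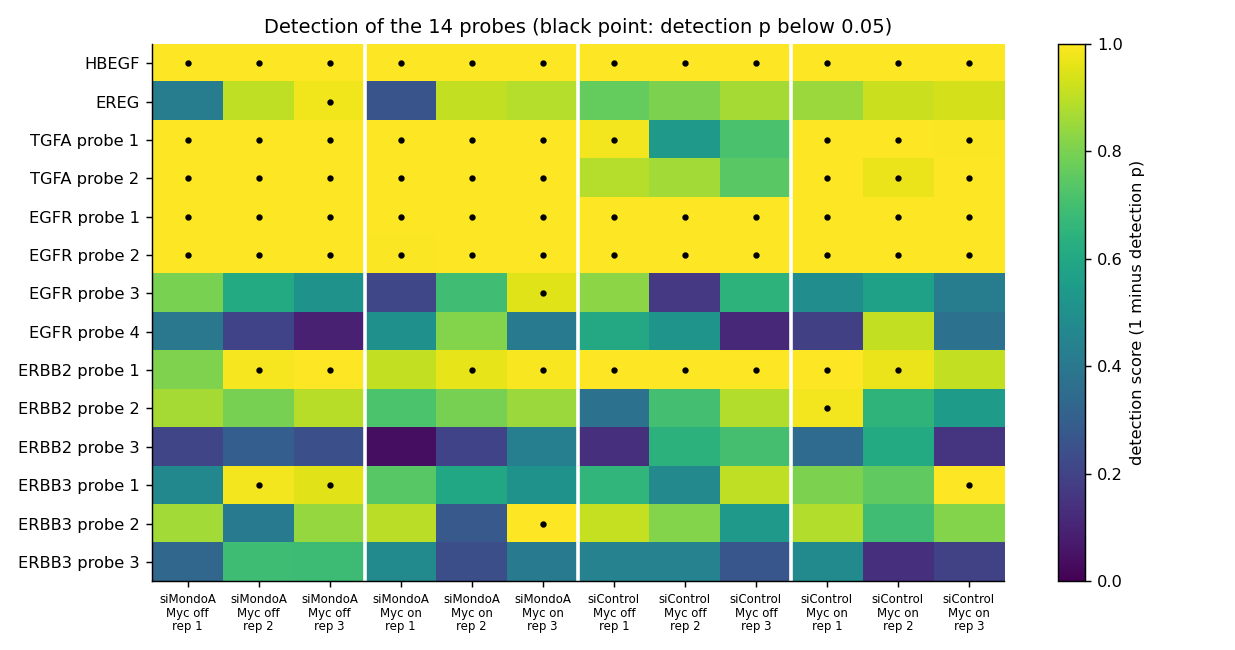
Detection score of each of the 14 member probes (rows) on each of the 12 arrays (columns, grouped as siMondoA Myc off, siMondoA Myc on, siControl Myc off, siControl Myc on), where the score is 1 minus the detection p-value and a black point marks detection. HBEGF and 2 EGFR probes pass on all 12 arrays, and EREG passes on 1.

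EGFR, a receptor for HB-EGF and TGF-alpha, was highest in siControl Myc-off cells by both of its detected probes. Levels of the brighter probe (ILMN_1798975, 12 of 12 arrays) were 6.69, 6.45 and 6.93 in siMondoA Myc-off cells and 6.56, 6.44 and 6.77 in siMondoA Myc-on cells. In siControl cells they were 7.70, 7.44 and 7.69 with Myc off and 6.90, 6.84 and 7.18 with Myc on. The siMondoA groups overlapped each other, and siMondoA Myc off also overlapped siControl Myc on. The siRNA difference was -0.92 ± 0.15 with Myc off (1.89-fold lower) and -0.38 ± 0.15 with Myc on. Myc off against Myc on was 0.10 ± 0.15 in siMondoA cells, with overlapping arrays, and 0.63 ± 0.15 in siControl cells (1.55-fold higher).

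The other detected EGFR probe (ILMN_1696521), annotated to a different transcript variant, gave another pattern. Its levels were 6.36, 6.58 and 6.21 (siMondoA, Myc off) and 5.66, 5.99 and 5.83 (siMondoA, Myc on), against 7.11, 6.62 and 6.71 (siControl, Myc off) and 6.11, 6.44 and 6.25 (siControl, Myc on). By this probe the siRNA difference was alike in the 2 Myc states, -0.43 ± 0.16 with Myc off and -0.44 ± 0.16 with Myc on. Their difference was 0.01 ± 0.23 (95% interval -0.48 to 0.51), against -0.53 ± 0.21 by the brighter probe. Myc off was higher than Myc on under both siRNAs, by 0.56 ± 0.16 with siMondoA and 0.55 ± 0.16 with siControl. The 2 probes thus disagree on the Myc difference in siMondoA cells, which for the brighter probe was -0.09 under median scaling. The 2 remaining EGFR probes were detected on 1 and 0 arrays, and the undetected probe is annotated to the same variant as ILMN_1696521.

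ERBB2, the partner receptor without a known ligand, was also highest in siControl Myc-off cells. Its brightest probe (ILMN_2352131) was detected on 9 of 12 arrays, 2 of 3 in each group except siControl Myc off, where it was detected on all 3. Levels were 4.84, 5.51 and 5.82 in siMondoA Myc-off cells and 5.04, 5.23 and 5.40 in siMondoA Myc-on cells. In siControl cells they were 6.30, 6.07 and 6.27 with Myc off and 5.59, 5.31 and 4.99 with Myc on. The siControl Myc-off arrays were above the 9 others, and the other 3 groups overlapped one another. The siRNA difference was -0.82 ± 0.22 with Myc off (1.77-fold lower) and -0.07 ± 0.22 with Myc on. Myc off against Myc on was 0.16 ± 0.22 in siMondoA cells and 0.91 ± 0.22 in siControl cells (1.88-fold higher). The signal was close to background, and without background correction the 2 larger differences shrank to -0.29 (siRNA, Myc off) and 0.31 (Myc off, siControl). The other ERBB2 probes were detected on 1 and 0 arrays.

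ERBB3, the neuregulin receptor, was barely detected. Its brightest probe was found on 3 of 12 arrays, 2 of siMondoA Myc off and 1 of siControl Myc on, with levels of 4.57 to 5.57 over all arrays. In each comparison 1 group was not above background, and no fold is given. The other ERBB3 probes were detected on 1 and 0 arrays.

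**Figure D3:**
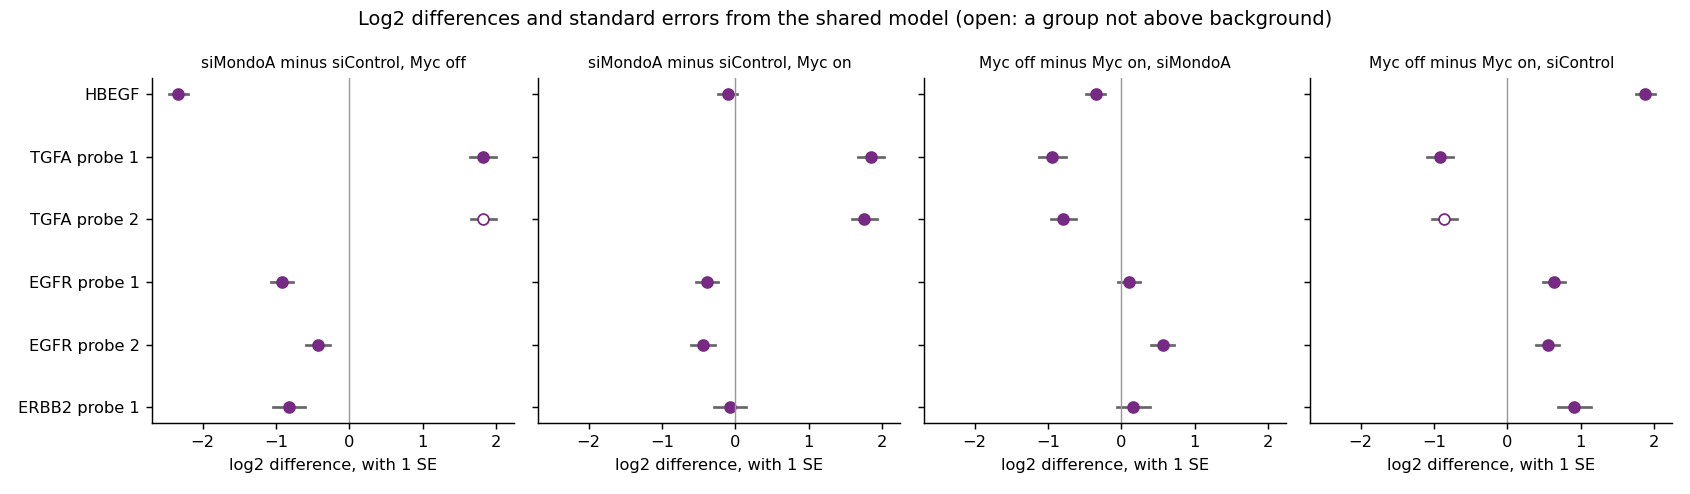
Log2 differences (horizontal axis) with 1 standard error for 6 member probes, 1 panel per comparison, without ERBB3, for which no fold is given, where open points mark a comparison with a group not above background. HBEGF lies at -2.33 for the siRNA with Myc off and at -0.10 with Myc on, whereas TGFA lies at 1.82 and 1.84.

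At an adjusted p below 0.05 in the fit across all genes, 4 of the 5 tested members lay past the threshold for the siRNA with Myc off (1 higher, 3 lower), where 43.8% of all genes did. With Myc on, 1 did (TGFA, higher), against 24.8% of all genes. For Myc off against Myc on, 1 did in siMondoA cells (TGFA, lower), against 30% of all genes. In siControl cells 4 did (3 higher, 1 lower), against 30.9%. For the difference between the knockdown changes 1 did (HBEGF), against 8.7%. The members were chosen on these arrays, so nothing is read from these counts.

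Other genes of the pathway came from a list of 60, of which 53 were tested. The list was chosen with earlier results of these data known, so its counts are a description. BTC, NRG2, ERBB4, FOS and GRB7 did not meet the detection filter, and EPGN and PIK3CA had no annotated probe. With Myc off, 12 of the 53 rose with the MondoA siRNA, 15 fell and 26 did not pass, where 21.8% of all genes rose and 22% fell. The list's median log2 change was 0.09, against 0.03 for all genes. With Myc on, 8 rose, 7 fell and 38 did not pass (all genes 12.4% and 12.5%), at medians of 0.07 and 0.03. For Myc off against Myc on in siMondoA cells, 10 rose, 8 fell and 35 did not pass (all genes 15.1% and 14.9%), at medians of 0.03 and 0.02. In siControl cells 15 rose, 7 fell and 31 did not pass (all genes 16.3% and 14.6%), at medians of 0.15 and 0.01. The 2 siRNA comparisons share no arrays, but each shares arrays with both Myc comparisons. The counts by role that follow are to be read beside the same shares of all genes.

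Of the 4 other ligands tested, EGF and NRG1 fell with the siRNA when Myc was off. EGF, detected on 4 of 12 arrays, was not above background in siMondoA Myc-off cells and at least 1.64-fold lower there than in siControl cells (adjusted p = 0.00013). NRG1, a neuregulin that binds ERBB3 and ERBB4, fell by 0.45 ± 0.14 with Myc off (adjusted p = 0.021) and by 0.59 ± 0.14 with Myc on (adjusted p = 0.01). Another NRG1 probe stood at -0.14 and 0.02 in those comparisons. The Myc-on call was lost under median scaling and with the mean of the probes, and 4 arrays, left out in turn, each ended the Myc-off call. In siControl cells EGF was higher with Myc off (0.87 ± 0.16, adjusted p = 0.0016). It was detected on 0 siMondoA arrays, on 3 of siControl Myc off and on 1 of siControl Myc on, so it met the filter through the group where it was high, and neither of its calls can be set apart from that. In siMondoA cells 0 of the 4 passed limma's adjusted threshold for Myc off against Myc on, and 1 had an unadjusted p below 0.05.

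Of 8 genes for shedding and trafficking, ADAM19 rose and ADAM9, RHBDF2 and RHBDF1 fell with the siRNA when Myc was off. ADAM9, a membrane metalloprotease, fell by 1.49 ± 0.16 (adjusted p = 1.3e-05), and RHBDF2, an inactive rhomboid that carries ADAM17 to the surface, fell by 1.17 ± 0.12 (adjusted p = 7.7e-06). With Myc on, RHBDF2 fell by 0.95 ± 0.12 (adjusted p = 0.00014) and ADAM9 by 0.60 ± 0.16 (adjusted p = 0.015), the ADAM9 call being lost under median scaling and without 1 array. Other RHBDF2 probes were at -0.98 and -0.26 with Myc off, and at -0.99 and -0.41 with Myc on.

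Myc off raised 5 of these 8 genes in siControl cells (ADAM12, RHBDF1, ADAM9, ADAM19 and ADAM17) and 4 in siMondoA cells (ADAM12, ADAM19, ADAM10 and ADAM17), and lowered 0 in either by limma's test, also at an unadjusted p below 0.05. Of all genes, 16.3% rose and 14.6% fell in siControl cells, and 15.1% rose and 14.9% fell in siMondoA cells. ADAM12, a metalloprotease that cleaves HB-EGF, rose by 1.47 ± 0.17 in siMondoA cells (adjusted p = 6.7e-05) and by 1.64 ± 0.17 in siControl cells (adjusted p = 2.7e-05), where it was detected on 1 of 3 Myc-on arrays. Its other probes disagreed in siControl cells, at 0.02 and 0.62, and stood at 1.44 and 0.87 in siMondoA cells. ADAM19 rose by 0.93 ± 0.10 in siMondoA cells (adjusted p = 4.7e-05). RHBDF1, the other inactive rhomboid on the list, rose by 1.14 ± 0.12 in siControl cells (adjusted p = 2.4e-05).

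Of 6 binding partners, SDC1 rose and CD9 and SDC4 fell with the siRNA when Myc was off. CD9, a tetraspanin that associates with membrane HB-EGF, fell by 1.43 ± 0.20 (adjusted p = 9.1e-05), but its other probe was at 0.18. SDC4, a heparan sulfate proteoglycan, fell by 0.81 ± 0.16 (adjusted p = 0.0012). ITGB1 did not pass there (-0.13 ± 0.11), while its other probes were at -0.62 and -0.57. With Myc on, CD44, a hyaluronan receptor, rose by 0.71 ± 0.11 (adjusted p = 0.00084) and the other 5 did not pass, while other CD44 probes were at 0.01 and 0.81. Myc off raised 4 partners in siControl cells, SDC4 (1.15 ± 0.16, adjusted p = 0.00019), the integrin chain ITGB1 (0.72 ± 0.11, adjusted p = 0.00044), CD82 and CD44. In siMondoA cells ITGB1 rose (0.52 ± 0.11, adjusted p = 0.0038, lost under median scaling) and CD9 fell (-0.77 ± 0.20, adjusted p = 0.011, other probe 0.18, lost with the mean of the probes).

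Of 12 adaptors and effectors tested, PIK3R1 and GRB2 rose and STAT3 and SHC1 fell with the siRNA when Myc was off. PIK3R1, the regulatory subunit of PI3-kinase, rose by 1.49 ± 0.16 (adjusted p = 1.3e-05), while its other probes stood at -0.02 and 0.86. STAT3, a transcription factor activated downstream of the receptors, fell by 1.01 ± 0.11 (adjusted p = 2e-05). With Myc on, GRB2 (0.79 ± 0.18, adjusted p = 0.0072) and PIK3R1 rose and STAT3 fell (-0.87 ± 0.11, adjusted p = 2e-04). Myc off raised STAT3 (0.61 ± 0.11, adjusted p = 0.0015) and the adaptor SHC1 (0.58 ± 0.12, adjusted p = 0.0039) in siControl cells. In siMondoA cells it raised PIK3R1 (1.12 ± 0.16, adjusted p = 0.00028, other probes -0.18 and 0.82), SOS1 (0.68 ± 0.21, adjusted p = 0.029) and STAT3. That STAT3 rise was 0.48 ± 0.11, while its other probes disagreed in sign, at -0.22 and 0.17. The SOS1 call, for an activator of Ras, was lost under median scaling and with any of 4 arrays left out.

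Of 12 receptor inhibitors and degradation genes, SOCS4 and RNF41 rose and CBLB, ERBIN and ERRFI1 fell with the siRNA when Myc was off. ERBIN was detected on 5 arrays, 3 of them siControl Myc off. It was not above background in siMondoA Myc-off cells and at least 1.39-fold lower there than in siControl cells. It met the filter through the group where it was high, so its call cannot be set apart from that. CBLB, a ubiquitin ligase that acts on EGFR, fell by 1.57 ± 0.12 (adjusted p = 1.1e-06), and SOCS4, which promotes EGFR degradation, rose by 0.90 ± 0.17 (adjusted p = 0.00079). With Myc on, CBLB fell by 0.77 ± 0.12 (adjusted p = 0.00071) and SOCS4 rose by 0.60 ± 0.17 (adjusted p = 0.02), the SOCS4 call being lost with any of 3 arrays left out. Myc off raised CBLB by 1.37 ± 0.12 in siControl cells (adjusted p = 9.3e-06), with ERRFI1 also higher, SOCS4 lower and LRIG3 lower (-0.66 ± 0.15, adjusted p = 0.006). In siMondoA cells CBLB rose by 0.57 ± 0.12 (adjusted p = 0.0038, lost under median scaling). ERRFI1, a kinase inhibitor of the receptors, fell there by 0.38 ± 0.12 (adjusted p = 0.027), and the call was lost with either of 2 arrays left out and with only the 2 groups in the fit.

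Of 11 transcripts that ERK signalling induces, 6 rose and 3 fell with the siRNA when Myc was off (all genes 21.8% and 22%). When Myc was on, 4 rose and 2 fell (all genes 12.4% and 12.5%). DUSP4, a phosphatase that acts on ERK, rose by 0.87 ± 0.23 with Myc off (adjusted p = 0.0078), and SPRED2, PHLDA1, FOSL1, DUSP6 and SPRY2 also rose. IER3, an immediate early gene, fell by 1.16 ± 0.18 with Myc off (adjusted p = 0.00023) and by 1.49 ± 0.18 with Myc on (adjusted p = 0.00012). EGR1, a zinc finger transcription factor of the immediate early class, fell by 1.66 ± 0.17 with Myc on (adjusted p = 3.3e-05), where PHLDA1, DUSP4, FOSL1 and DUSP6 rose. Members of this list went both ways with the siRNA in each state.

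Of the same 11, Myc off lowered 6 and raised SPRED2 in siMondoA cells (all genes 14.9% lower, 15.1% higher). In siControl cells it lowered ETV4, IER3, SPRY2, ETV5 and EGR1 and raised PHLDA1 (all genes 14.6% lower, 16.3% higher). ETV4, an ETS transcription factor of the PEA3 group, fell by 1.31 ± 0.14 in siMondoA cells (adjusted p = 3.9e-05), and in siControl cells its log2 change was -1.59 ± 0.14 (adjusted p = 8.4e-06), with its other probe at -1.36 and -1.93. ETV5, of the same group, fell by 0.92 ± 0.12 in siMondoA cells (adjusted p = 0.00011), while the other ETV5 probe stood at -0.55 there and, opposite in sign to the one counted, at 0.24 in siControl cells. IER3 fell by 1.23 ± 0.18 in siControl cells (adjusted p = 0.00029). The other PHLDA1 probe was likewise opposite in sign in siControl cells, at -0.62.

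**Figure D4:**
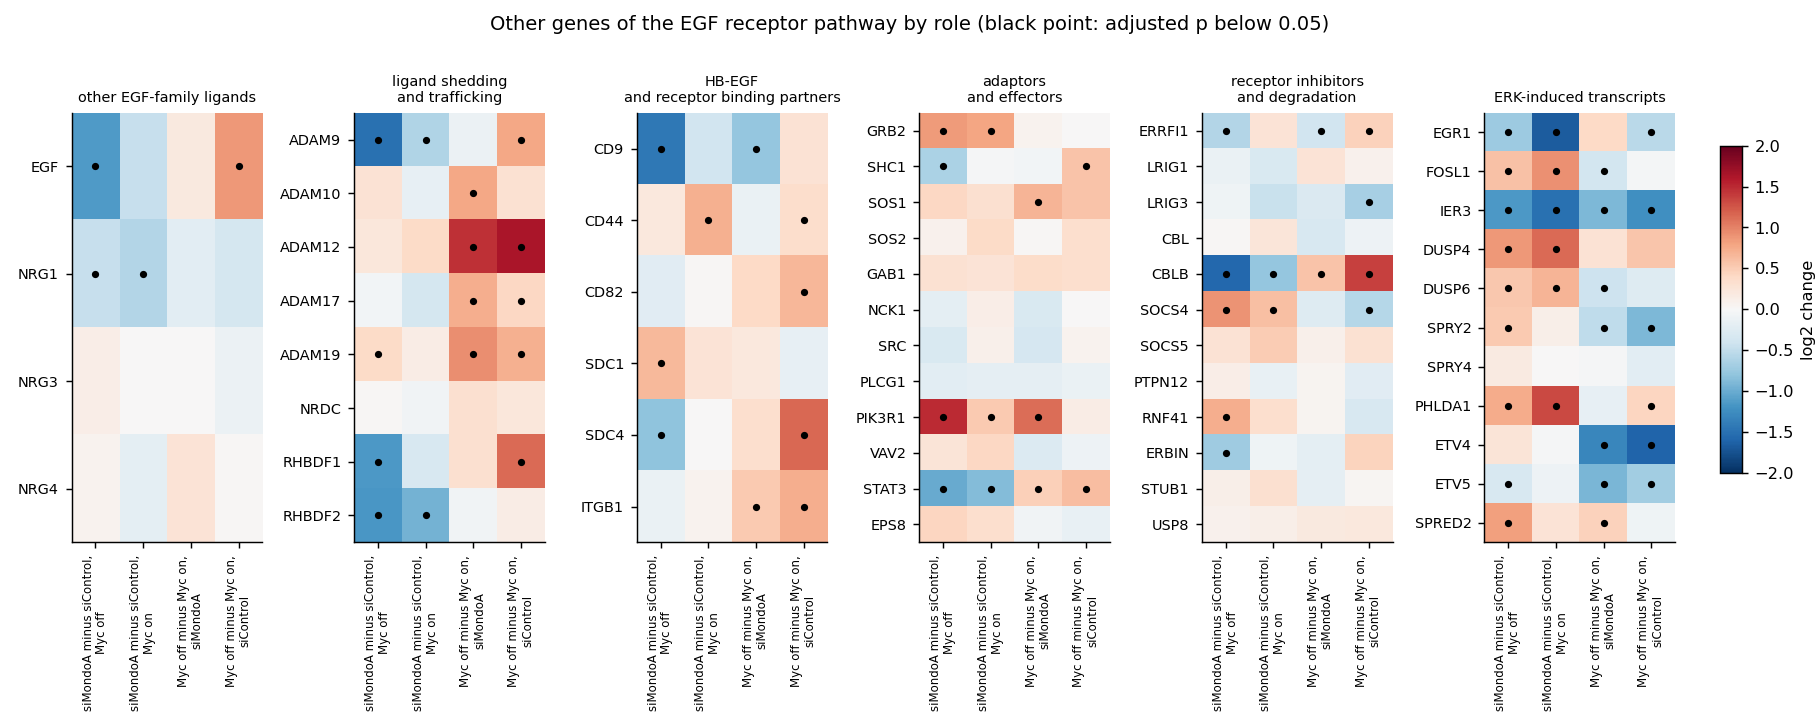
Log2 changes (colour) of the 53 tested pathway genes, 1 panel per role with genes in rows and the 4 comparisons in columns, where a black point marks an adjusted p below 0.05. ADAM9, RHBDF2, STAT3 and CBLB fell with the siRNA in both Myc states, and ADAM12 rose with Myc off under both siRNAs.

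The knockdown change with Myc off differed from that with Myc on for 11 of the 53 list genes (3 higher, 8 lower, 42 not passing), where 3.55% of all genes were higher and 5.15% lower. The list's median difference was -0.14, against 0.00 for all genes. The 8 lower genes were ADAM9, RHBDF1, CD9, SDC4, SHC1, ERRFI1, CBLB and PHLDA1, and the 3 higher ones PIK3R1, EGR1 and SPRED2. RHBDF1 differed by -0.82 ± 0.17 (adjusted p = 0.011), ERRFI1 by -0.85 ± 0.17 (adjusted p = 0.0093) and CBLB by -0.80 ± 0.17 (adjusted p = 0.014), and these 3 passed under all 19 alternatives run. With any 1 array left out except siMondoA Myc-off replicate 2, the count was 4 to 7, and without that replicate it was 11. Under median scaling 9 passed, all of them lower, and with the replicate block 8 passed.

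The genes whose 12-array pattern was most like that of HBEGF, among the 12177 other genes tested and leaving out provisional symbols, were MYLK, MIR503HG, POLR2A, MMP9, ADGRG1 and CLIC3. Likeness was measured as Pearson's r of normalized log2 levels, and it carries no p because the 12 points share 4 groups and the genes were picked for it. MYLK, the myosin light chain kinase gene, had r = 0.989, with group means of 7.25 and 7.43 in siMondoA cells (Myc off, Myc on), against 8.94 and 7.44 in siControl cells. MIR503HG, a microRNA host transcript (r = 0.982), had log2 differences of -2.11 for the siRNA with Myc off and 1.52 for Myc off in siControl cells. POLR2A, the largest subunit of RNA polymerase II (r = 0.981), moved less, at -0.77 and 0.56 in those comparisons. ADGRG1, an adhesion receptor gene (r = 0.973), stood at -2.15 and 1.42.

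MMP9, a secreted metalloprotease gene (r = 0.974), and CLIC3 (r = 0.971) were each detected on 3 arrays, the 3 of siControl Myc off. Both met the filter only through the group where HBEGF is high, so their likeness to it cannot be set apart from that. The genes least like HBEGF were MEMO1 (r = -0.971), which encodes a mediator of ERBB2-driven motility, MZT1 (r = -0.970) and the splicing factor gene SRSF7 (r = -0.962). MEMO1 was at 8.57 and 8.54 in siMondoA cells (Myc off, Myc on), against 7.97 and 8.45 in siControl cells, so that siControl Myc off was the low group.

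**Figure D5:**
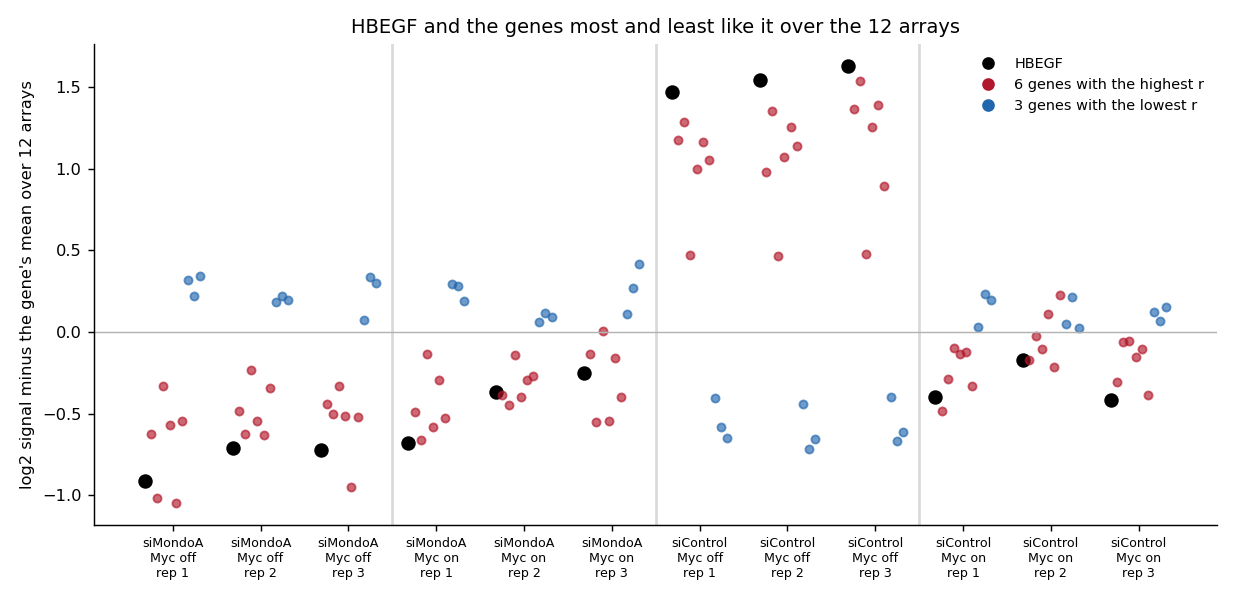
Log2 level minus the gene's own mean over the 12 arrays (vertical axis) for HBEGF (black), the 6 genes most like it (red) and the 3 least like it (blue), 1 point per gene and array in the 4 groups. The red points and HBEGF lie above 0 on the 3 siControl Myc-off arrays, where the blue points lie below 0.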

How the data were processed

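Expression in Tet21N cells was read on 12 Illumina bead arrays, 3 in each of 4 groups taken, with replicate numbers, from the labels. The authors deposited probe intensities that, by their values, are neither background-corrected nor normalized. The deposited detection score, a fraction, equals 1 minus a detection p-value. The deposited log2 values matched quantile-normalized intensities with no background correction (to within 5.3e-14) and served as an alternative. The tool lumi appears in the submitters' processing notes, its version not being given in the sources used here. No slide or scan is named, so no batch could be tested.

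Intensities were corrected and quantile-normalized by neqc (limma 3.58.1, R 4.3.3, negative controls inferred from detection p-values, offset 16). The filter on dim probes (detection p below 0.05, 3 arrays or more) kept 22188 probes, and the probe with the highest mean stood for each of 12178 genes. A mean per group was fitted to all 12 arrays together (lmFit, eBayes, 8 residual degrees of freedom), with Benjamini-Hochberg adjustment over all genes at 0.05. Log2 changes had a median SE of 0.149, and precision is limited by how few arrays there are. The code was tested on simulated data. Levels of different probes were not compared. Probes were named through the platform annotation and RefSeq (30069 matched, 0 symbols changed).

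The members and lists were chosen with earlier results of these data known. In each comparison the text gives values for the 2 genes of each role with the largest change among those that passed, and for the 6 genes most and 3 least like HBEGF. Other names, of small counts, were chosen after their values were seen. Alternatives were no background correction, median scaling, an offset of 50, no filter and a stricter one, the mean of a gene's probes, the replicate number as a block, only the 2 groups compared, and each array left out in turn. Replicate numbers did not pair the samples.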

Additional observations from a re-analysis of the deposited data

Results flagged for a closer look

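HBEGF differed between Myc off and Myc on in opposite directions under the 2 siRNAs, with arrays that were not paired. The difference was -0.35 in siMondoA cells and 1.88 in siControl cells. In siMondoA cells the nearest normalized levels were 6.39 and 6.42. The raw signals there overlapped (up to 186.4 with Myc off, from 185.9 with Myc on). The siMondoA difference did not lie past the threshold in the fit across all genes. The siMondoA difference minus the siControl one is the same quantity as the difference of the knockdown changes (-2.23 ± 0.18, SE). That quantity did lie past it, but HBEGF was chosen on these arrays and nothing is read from either. Among the pathway genes, the knockdown change with Myc off differed from that with Myc on, by limma's test of the difference, for 11. The differences were -0.89 for ADAM9, -0.82 for RHBDF1, -1.05 for CD9, -0.82 for SDC4, -0.62 for SHC1, -0.85 for ERRFI1, -0.80 for CBLB, -0.59 for PHLDA1, 0.97 for PIK3R1, 0.94 for EGR1 and 0.55 for SPRED2. For 3 of these genes other detected probes disagreed in sign, with CD9 at 0.41, PHLDA1 at 0.20, and PIK3R1 at -0.32 and 0.73. Other SHC1 probes, at -0.79 and -0.49, had the same sign. With each array left out in turn, the call held in 12 of 12 fits for RHBDF1, ERRFI1 and CBLB and in 11 for PIK3R1. It held in 5 for EGR1, in 3 each for ADAM9, CD9 and PHLDA1, and in 2 each for SDC4 and SHC1.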

How the results depend on the processing

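The only HBEGF difference to turn in sign was that of the siRNA with Myc on, whose arrays overlapped. It was 0.03 under median scaling and 0.02 without siMondoA Myc-on replicate 1. The list genes followed by name under the alternatives were the 2 of each role with the largest changes that passed. None of those turned in sign. Without background correction HBEGF was at -1.45 (siRNA, Myc off), -0.16 (Myc off, siMondoA), 1.24 (Myc off, siControl) and -1.40 (difference of the knockdown changes), and 1695 genes passed that last comparison, against 1059. Under median scaling HBEGF was at -0.54 (Myc off, siMondoA) and -2.51 (difference of the knockdown changes). With an offset of 50 it was at -1.94 (siRNA, Myc off), 1.60 (Myc off, siControl) and -1.86 (difference of the knockdown changes). The cause was not tested.

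Median scaling put the median of all genes at -0.06 and 0.19 (siRNA with Myc off and on), -0.13 and 0.11 (Myc off, siMondoA and siControl) and -0.28 (difference of the knockdown changes). Higher genes then made up 37.2%, 79.1%, 23.8%, 74.4% and 5.92% of the calls, against 49.9%, 49.7%, 50.3%, 52.8% and 40.8% by quantile normalization. Among the other members 27 recomputed values moved by more than the replicate SD and 349 did not, 12 of the 27 without background correction.

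With each array left out in turn, HBEGF ranged from -2.38 to -2.26 and -0.19 to 0.02 (siRNA, Myc off and on), -0.47 to -0.26 and 1.84 to 1.96 (Myc off, siMondoA and siControl) and -2.35 to -2.12 (difference of the knockdown changes). In the same 5 comparisons the list genes called ranged from 24 to 28, 13 to 17, 14 to 19, 17 to 23 and 4 to 11, and all genes called from 4568 to 5379, 2331 to 3125, 2924 to 3608, 2940 to 3868 and 686 to 1146. For the last comparison 3 arrays took the count more than 1.5 times below 1059 when left out, siControl Myc-off replicate 3 (686), siControl Myc-on replicate 2 (695) and siMondoA Myc-off replicate 1 (696).

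Arrays with the same replicate number did not deviate together (r from -0.0967 to 0.0835 over 18 pairs, and 3 of 12 arrays correlated best with their own number). With the replicate block, 5240, 2881, 3500, 3647 and 904 genes passed in the 5 comparisons, 27, 16, 17, 23 and 8 of them on the list, and HBEGF stayed at -2.33 for the siRNA with Myc off. The block left 8 list genes with a difference of the knockdown changes (2 higher, 6 lower). Of the list genes followed by name, it ended those of CD9 and SHC1. SPRED2 was not followed by name.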
